A study of Homo sapiens with 12 samples.

Results

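Tau, the product of MAPT, binds and stabilises microtubules in neurons, and its binding, turnover and place in the cell are set by chemical groups added to its side chains. Kinases add phosphates and phosphatases remove them, acetyltransferases and deacetylases act on its lysines, and a sugar transferase places O-GlcNAc on serines and threonines. Many of these enzymes act on far more proteins than tau, and in Alzheimer disease tau that is heavily phosphorylated and acetylated gathers in tangles. The transcripts described here encode 8 enzymes of these kinds: the serine/threonine kinases MARK2 and GSK3A, the phosphatase scaffold PPP2R1A, the acetyltransferase CREBBP, the deacylase SIRT5, the O-GlcNAc transferase OGT and the tyrosine kinases ABL1 and ABL2. They were picked by gene name and are 8 of the 1676 genes that the deposited table lists.

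RNA came from the established human neuroblastoma line SH-SY5Y, 24 h after transfection with 1 of 4 tau constructs. Tau-S199E replaces a serine of tau by glutamate, which stands in for a phosphorylated serine. Tau-K174Q replaces a lysine by glutamine, which stands in for an acetylated lysine, Tau-K174Q:S199E carries both changes, and Tau-WT carries neither. All 12 libraries, 3 for each construct, therefore came from cells given extra tau, and the sources used here do not give the tau isoform, the vector or the amount of tau protein made.

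The title of the study ties tau in the nucleus to SIRT6, to CBP (the product of CREBBP) and to protein synthesis. The comparisons ask how the transcripts of these enzymes stood in cells given mimics of tau phosphorylation and acetylation. Each gene's values were standardised by the authors to mean 0 and SD 1 over the 12 libraries. A value is therefore in SD units of that gene, depth and fold size are lost, and levels cannot be compared between genes. Libraries are named by the number in their column: 10, 11 and 12 for Tau-S199E, 4, 5 and 6 for Tau-K174Q, 16, 17 and 18 for Tau-K174Q:S199E, and 1, 2 and 3 for Tau-WT.

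The table is a selection, and 2 libraries stood apart. In the authors' deposited table, 1676 of 1676 genes had a fold change of the same sign as Tau-WT minus Tau-S199E, and as many had that of the interaction defined further on. For Tau-WT minus Tau-K174Q it was 1675 of 1676. None of these directions is therefore independent of how the table was chosen. Library 12 had a spread over genes of 1.67 SD units, against 0.47 to 1.21 in the other 11. Library 18 lay on the side of the single-change libraries: with each gene turned so that its Tau-S199E side was positive, its mean over all genes was 0.44, against -0.97 and -0.57 in libraries 16 and 17. Of 23 markers of mesenchymal neuroblastoma cells, 4 were in the table (CD44, SNAI2, S100A6 and S100A10). Their summed standardised level lay between 2.1 and 8.0 in Tau-S199E, 0.99 and 1.98 in Tau-K174Q, -4.08 and 2.39 in Tau-K174Q:S199E, and -4.84 and -3.07 in Tau-WT libraries. The Tau-K174Q:S199E range overlapped that of each other construct. All 4 are genes of the selected table, so some difference between Tau-S199E and Tau-WT was built in, and the other listed markers were not seen. The part of this level in the results was not tested. None of 20 markers of noradrenergic neuroblastoma cells was among the 1676 genes, so the label of the cells could not be checked with them. In such bulk samples, fewer cells of a type and less RNA per cell cannot be told apart.

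In Tau-S199E cells against Tau-WT cells, 7 of the 8 enzyme transcripts passed the test, and they went in both directions. All 1676 genes had been selected beforehand (deposited adjusted p of at most 0.0499), and this comparison followed that selection in every gene. Its p-values take no account of the selection. A pass here therefore describes genes already selected, and cannot be read as separate evidence of a difference. MARK2, GSK3A, CREBBP and ABL2 fell, by 1.52 to 2.31 SD units, and PPP2R1A, OGT and SIRT5 rose, by 1.46 to 2.16 SD units. ABL1 stood 1.34 ± 0.64 SD units (SE) higher in Tau-S199E with an adjusted p of 0.0745, so it did not pass. The test was limma's linear model with the ordinary residual variance of each gene over the 12 libraries and Benjamini-Hochberg adjustment over 1676 genes, at a threshold of 0.05. In that comparison 90.0% of the 1676 genes passed, 48.3% higher and 41.8% lower, so the share of the enzymes was close to that of the table. At an unadjusted p under 0.05 there were 7 of 8, against 91.3% of all genes. The libraries of the constructs did not overlap in 7 of 8 enzymes, against 94.2% of all genes. Without libraries 12 and 18, 6 of 8 passed, against 79.4% of all genes: SIRT5 and ABL2 no longer did, and ABL1 did (adjusted p 0.0151). The median size of the difference was 2.07 SD units over the 8 enzymes and 1.99 over all genes.

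**Figure D1:**
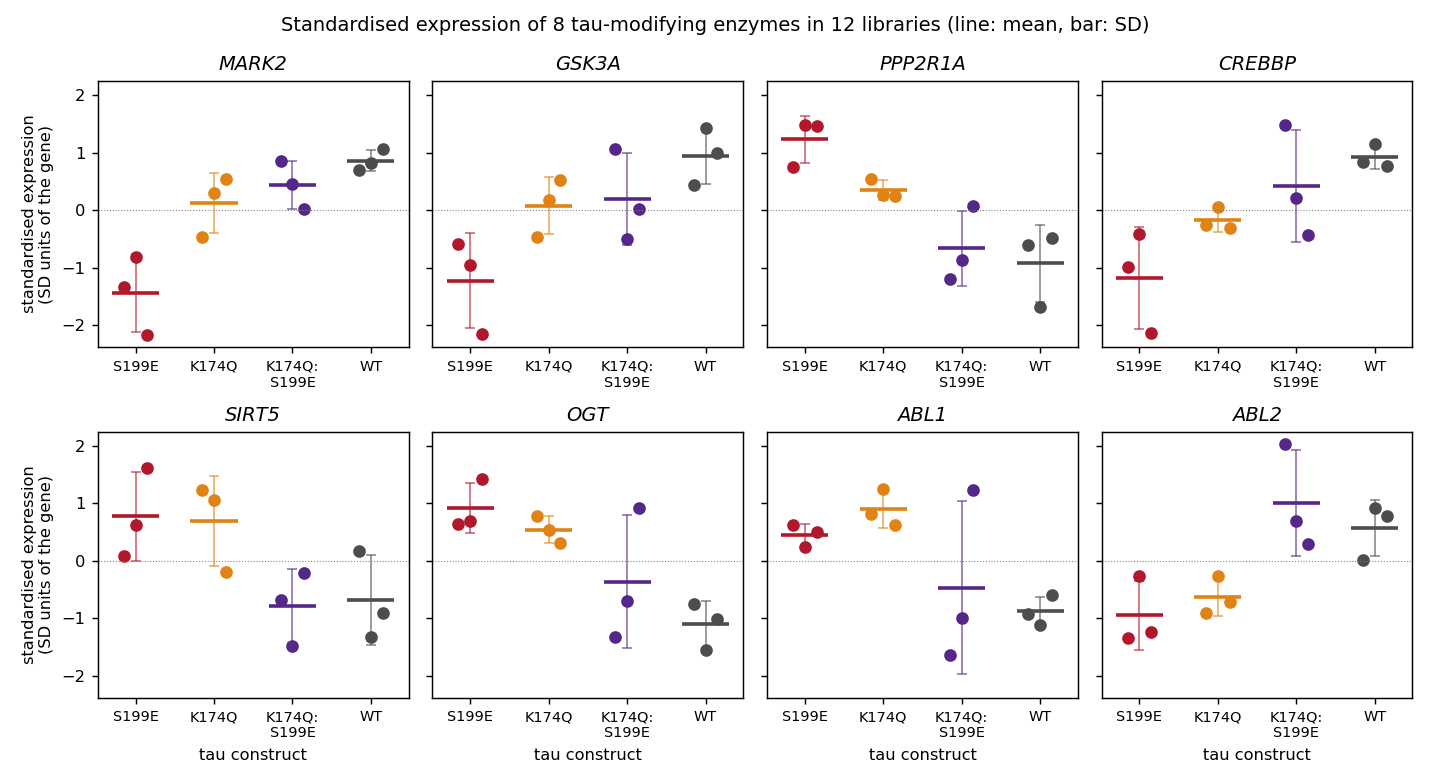
Standardised expression of the 8 enzymes (vertical axis, SD units of each gene) in 12 libraries; each panel is a gene, each point a library, the columns are Tau-S199E, Tau-K174Q, Tau-K174Q:S199E and Tau-WT, and lines with bars are means with SD (n = 3). MARK2, GSK3A, CREBBP and ABL2 are low in Tau-S199E and high in Tau-WT, while PPP2R1A, OGT, SIRT5 and ABL1 run the other way. Among the Tau-K174Q:S199E libraries, library 18 is farthest from the Tau-WT points in OGT and ABL1.

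MARK2, a kinase of the microtubule affinity-regulating family that phosphorylates tau in its microtubule-binding repeats and so loosens it from microtubules, lies at chr11:63838928-63911019 on the plus strand of GRCh38. Its values were -1.34, -0.82 and -2.17 in Tau-S199E libraries 10, 11 and 12, -0.46, 0.3 and 0.55 in Tau-K174Q libraries 4, 5 and 6, 0.85, 0.46 and 0.02 in Tau-K174Q:S199E libraries 16, 17 and 18, and 0.7, 0.83 and 1.07 in Tau-WT libraries 1, 2 and 3. All 3 Tau-S199E libraries were thus below every other library, while the Tau-K174Q:S199E libraries overlapped both the Tau-K174Q and the Tau-WT ones. MARK2 fell by 2.31 ± 0.40 SD units in Tau-S199E against Tau-WT (adjusted p 0.00968; exact two-sided permutation p 0.1, the smallest that 3 against 3 libraries allow). The combined construct stood 1.88 ± 0.40 SD units above Tau-S199E (adjusted p 0.0644), and Tau-K174Q differed from Tau-WT by -0.73 ± 0.40 (adjusted p 0.136), neither past the threshold. The annotation names 13 pseudogenes of MARK2, whose reads the authors' counting could split from it.

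GSK3A, glycogen synthase kinase 3 alpha, phosphorylates tau at serines and threonines that precede a proline, besides glycogen synthase and many other proteins. It lies at chr19:42230186-42242625 on the minus strand, and its promoter is printed because it has a single window among the RefSeq promoters used here. The 250 bases of that window (GRCh38.p14, chr19:42242603-42242852, minus strand, 5′ to 3′) hold 2 GC boxes (GGGCGG or its reverse complement), here in capitals.
GSK3A: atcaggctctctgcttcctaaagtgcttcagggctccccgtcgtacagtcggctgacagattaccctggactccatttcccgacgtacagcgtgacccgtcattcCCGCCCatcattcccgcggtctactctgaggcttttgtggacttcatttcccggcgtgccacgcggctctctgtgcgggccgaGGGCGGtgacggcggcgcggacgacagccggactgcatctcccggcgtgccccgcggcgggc

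The values of GSK3A were -0.58, -0.95 and -2.16 in Tau-S199E libraries 10, 11 and 12, -0.46, 0.18 and 0.52 in Tau-K174Q libraries 4, 5 and 6, 1.06, -0.5 and 0.03 in Tau-K174Q:S199E libraries 16, 17 and 18, and 0.44, 1.43 and 0.99 in Tau-WT libraries 1, 2 and 3. The Tau-S199E libraries were again the lowest of the 12, and library 12 lay well under the other 2. GSK3A fell by 2.18 ± 0.55 SD units in Tau-S199E against Tau-WT (adjusted p 0.012). Its difference between Tau-K174Q:S199E and Tau-S199E was 1.43 ± 0.55 (adjusted p 0.0734), and between Tau-K174Q:S199E and Tau-K174Q it was 0.12 ± 0.55 (adjusted p 0.869). GSK3A thus had the same order of means as MARK2: Tau-WT had the highest mean, then Tau-K174Q:S199E and Tau-K174Q, whose libraries overlapped, and Tau-S199E the lowest.

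PPP2R1A encodes the alpha scaffold of protein phosphatase 2A, which holds the catalytic and regulatory subunits of the main tau phosphatase of the brain. It lies at chr19:52190039-52229533 on the plus strand. PPP2R1A stood at 0.76, 1.49 and 1.46 in Tau-S199E libraries 10, 11 and 12, at 0.55, 0.26 and 0.24 in Tau-K174Q libraries 4, 5 and 6, at -1.19, -0.87 and 0.07 in Tau-K174Q:S199E libraries 16, 17 and 18, and at -0.61, -1.69 and -0.48 in Tau-WT libraries 1, 2 and 3. The means stepped down from Tau-S199E to Tau-K174Q to Tau-K174Q:S199E with no overlap at either step, and the Tau-K174Q:S199E libraries overlapped those of Tau-WT. PPP2R1A rose by 2.16 ± 0.42 SD units in Tau-S199E against Tau-WT (adjusted p 0.00981). The combined construct differed from Tau-S199E by -1.9 ± 0.42 (adjusted p 0.0644), and Tau-K174Q differed from Tau-WT by 1.28 ± 0.42 (adjusted p 0.0674). An antisense gene, AC010320.2, has an exon within the last 1000 bases of PPP2R1A, where a 3′ kit reads, and the sources used here do not say whether the authors counted by strand.

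CREBBP encodes CBP, an acetyltransferase of histones and transcription factors that also acetylates tau, and lies at chr16:3725054-3880726 on the minus strand. Its values were -0.99, -0.41 and -2.14 in Tau-S199E libraries 10, 11 and 12, -0.26, 0.06 and -0.31 in Tau-K174Q libraries 4, 5 and 6, 1.49, 0.22 and -0.43 in Tau-K174Q:S199E libraries 16, 17 and 18, and 0.84, 1.16 and 0.77 in Tau-WT libraries 1, 2 and 3. The Tau-WT libraries were close together and above every library of the single-change constructs, while the Tau-K174Q:S199E libraries were spread over most of the range. CREBBP fell by 2.1 ± 0.55 SD units in Tau-S199E against Tau-WT (adjusted p 0.013). Tau-K174Q differed from Tau-WT by -1.09 ± 0.55 with no overlap, but the adjusted p was 0.122. Tau-K174Q:S199E against Tau-S199E gave 1.61 ± 0.55 (adjusted p 0.0688), and library 18 at -0.43 lay just below the highest Tau-S199E library at -0.41.

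SIRT5 is a sirtuin known mainly for removing succinyl, malonyl and glutaryl groups from lysines of mitochondrial enzymes, with weak activity on acetyl groups. Whether it acts on tau was not examined here. It lies at chr6:13574529-13615158 on the plus strand, where the antisense gene AL441883.1 has an exon in its last 1000 bases. SIRT5 was measured at 0.09, 0.63 and 1.62 in Tau-S199E libraries 10, 11 and 12, at 1.23, 1.06 and -0.2 in Tau-K174Q libraries 4, 5 and 6, at -0.68, -1.48 and -0.21 in Tau-K174Q:S199E libraries 16, 17 and 18, and at 0.18, -1.33 and -0.9 in Tau-WT libraries 1, 2 and 3. Tau-S199E and Tau-K174Q were nearly level, with means of 0.78 and 0.7, and all 3 Tau-K174Q:S199E libraries lay below both. The gap to Tau-K174Q was negligible, with library 18 at -0.21 and Tau-K174Q library 6 at -0.2. SIRT5 rose by 1.46 ± 0.61 SD units in Tau-S199E against Tau-WT (adjusted p 0.0489, exact permutation p 0.2), but Tau-S199E library 10 lay below Tau-WT library 1. That call did not hold with ranks (adjusted p 0.0558), with the 6 libraries of the pair alone (0.0909) or without any 1 of libraries 2, 3, 4, 5, 11, 12, 16, 17 and 18. Without library 12 the difference was 1.04 (adjusted p 0.159). Tau-K174Q:S199E differed from Tau-S199E by -1.57 ± 0.61 (adjusted p 0.0748) and from Tau-K174Q by -1.49 ± 0.61 (adjusted p 0.456), without overlap in either pair.

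OGT is the only enzyme that places O-GlcNAc on nuclear and cytosolic proteins, tau included, at serines and threonines some of which can also be phosphorylated. It lies at chrX:71533083-71575897 on the plus strand. It too has a single window among the RefSeq promoters used here, and its 250 bases (GRCh38.p14, chrX:71532854-71533103, plus strand, 5′ to 3′) hold 1 GC box, in capitals.
OGT: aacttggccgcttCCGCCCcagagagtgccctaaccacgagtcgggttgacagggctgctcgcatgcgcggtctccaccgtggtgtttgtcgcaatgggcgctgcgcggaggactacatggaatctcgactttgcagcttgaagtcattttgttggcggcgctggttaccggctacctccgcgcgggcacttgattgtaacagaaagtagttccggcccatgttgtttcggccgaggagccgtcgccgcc

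OGT had values of 0.65, 0.7 and 1.42 in Tau-S199E libraries 10, 11 and 12, 0.78, 0.53 and 0.31 in Tau-K174Q libraries 4, 5 and 6, -1.32, -0.69 and 0.93 in Tau-K174Q:S199E libraries 16, 17 and 18, and -0.75, -1.55 and -1.02 in Tau-WT libraries 1, 2 and 3. Every library of the single-change constructs was above every Tau-WT library, and library 18 stood among the single-change libraries while 16 stood among the Tau-WT ones and 17 just above them. OGT rose by 2.03 ± 0.54 SD units in Tau-S199E against Tau-WT (adjusted p 0.0137). In Tau-K174Q against Tau-WT it differed by 1.65 ± 0.54 (adjusted p 0.0674). The difference between Tau-K174Q:S199E and Tau-S199E was -1.28 ± 0.54 (adjusted p 0.0855).

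ABL1 and ABL2 are related non-receptor tyrosine kinases that phosphorylate tau on tyrosine and act on the actin cytoskeleton, and their transcripts ran in opposite directions. ABL1 lies at chr9:130713946-130887675 on the plus strand and ABL2 at chr1:179099327-179229684 on the minus strand. The single RefSeq promoter window used here for each gene, of 250 bases (GRCh38.p14, chr9:130835004-130835253, plus strand, and chr1:179143077-179143326, minus strand), is printed to show how unlike these windows are. Both lie inside the spans just given, downstream of the annotated 5′ ends, so any start farther upstream is not covered. The ABL1 window is 78.4% G and C and holds 2 GC boxes, in capitals, and the ABL2 window is 37.6% G and C and holds none, so it has no capitals.
ABL1: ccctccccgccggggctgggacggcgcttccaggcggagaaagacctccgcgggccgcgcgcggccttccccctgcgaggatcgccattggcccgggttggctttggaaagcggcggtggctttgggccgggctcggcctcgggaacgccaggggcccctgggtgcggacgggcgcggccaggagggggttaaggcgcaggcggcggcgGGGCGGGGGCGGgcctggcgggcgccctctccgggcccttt
ABL2: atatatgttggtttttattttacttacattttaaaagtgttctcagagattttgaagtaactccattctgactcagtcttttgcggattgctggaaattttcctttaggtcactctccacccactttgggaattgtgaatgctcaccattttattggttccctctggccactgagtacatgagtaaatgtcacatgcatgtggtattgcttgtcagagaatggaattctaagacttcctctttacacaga

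ABL1 stood at 0.62, 0.25 and 0.5 in Tau-S199E libraries 10, 11 and 12, at 0.81, 1.26 and 0.62 in Tau-K174Q libraries 4, 5 and 6, at -1.64, -1.0 and 1.23 in Tau-K174Q:S199E libraries 16, 17 and 18, and at -0.93, -1.11 and -0.6 in Tau-WT libraries 1, 2 and 3. It was the only one of the 8 with its highest mean in Tau-K174Q, at 0.89 against 0.46 in Tau-S199E, though these libraries overlapped (difference 0.44 ± 0.64, adjusted p 0.712). Library 18 carried an ABL1 value exceeded only by Tau-K174Q library 5, while library 16 carried the lowest of the 12 and 17 lay among the Tau-WT libraries. ABL1 passed in Tau-S199E against Tau-WT without library 18 (adjusted p 0.00574), without library 16 (0.0435), with the 6 libraries of the pair alone (0.0302) and with moderated variances (0.0177). Of the 16 alternatives it passed in 5, the last being the one without libraries 12 and 18, and in the other 11 its adjusted p was 0.0851 to 0.178. With all 12 libraries, Tau-K174Q differed from Tau-WT by 1.78 ± 0.64 (adjusted p 0.0755) with no overlap.

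ABL2 had values of -1.35, -0.26 and -1.24 in Tau-S199E libraries 10, 11 and 12, -0.91, -0.27 and -0.71 in Tau-K174Q libraries 4, 5 and 6, 2.04, 0.69 and 0.29 in Tau-K174Q:S199E libraries 16, 17 and 18, and 0.02, 0.92 and 0.78 in Tau-WT libraries 1, 2 and 3. All 6 libraries of the single-change constructs were below 0 and all 6 of the others above it, and ABL2 was the only one of the 8 with its highest mean in Tau-K174Q:S199E. ABL2 fell by 1.52 ± 0.51 SD units in Tau-S199E against Tau-WT (adjusted p 0.0245). The call was lost without Tau-S199E library 10 or 12 or without Tau-WT library 2 or 3, with adjusted p of 0.0572 to 0.0762 in the settings where it was lost. Tau-K174Q:S199E differed from Tau-S199E by 1.95 ± 0.51 (adjusted p 0.0644) and from Tau-K174Q by 1.64 ± 0.51 (adjusted p 0.456), and neither pair overlapped.

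Outside Tau-S199E against Tau-WT, none of the 8 enzymes passed the test in any of the other 5 comparisons. In Tau-K174Q against Tau-WT, 0 of 8 passed, with 0.0% of all genes. The differences ran from -0.73 in MARK2 to -1.2 in ABL2 among the 4 that were negative and from 1.28 in PPP2R1A to 1.78 in ABL1 among the 4 that were positive, and the comparison shares its Tau-WT libraries with that of Tau-S199E. Their signs are not independent of how the table was chosen. At an unadjusted p under 0.05 there were 4 of 8 (PPP2R1A, OGT, ABL1 and ABL2), against 51.9% of all genes. The libraries of the constructs did not overlap in 6 of 8, against 80.7%, and GSK3A and SIRT5 were the ones that overlapped. With moderated variances 4 of 8 passed (PPP2R1A, SIRT5, OGT and ABL1), against 59.9% of all genes, and 3 of 8 passed without library 18 (PPP2R1A, OGT and ABL1), against 40.3%.

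In Tau-K174Q:S199E against Tau-WT, 0 of 8 passed, with 0.0% of all genes, and 0 of 8 at an unadjusted p under 0.05, against 7.58% of all genes. Moderated variances gave 0 of 8 as well, with 0.0% of all genes. The libraries of the 2 constructs overlapped in every enzyme, and 11.6% of all genes had libraries that did not overlap. Sizes ran from 0.11 SD units in SIRT5 to 0.76 in GSK3A, each with a standard error of 0.40 to 0.64. In Tau-K174Q:S199E against Tau-S199E, 0 of 8 passed, with 0.119% of all genes. Here 7 of 8, all but ABL1, had an unadjusted p under 0.05, against 56.4% of all genes, and 7 passed with moderated variances, against 68.8%. Libraries did not overlap in 5 of 8 (MARK2, GSK3A, PPP2R1A, SIRT5 and ABL2), against 43.4% of all genes. Without library 18, 7 of 8 passed, all but GSK3A, against 78.5% of all genes.

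In Tau-K174Q:S199E against Tau-K174Q, 0 of 8 passed, with 0.0% of all genes, and moderated variances also gave 0, with 0.119% of all genes. At an unadjusted p under 0.05 there were 3 of 8, against 8.23%, and libraries did not overlap in 3 of 8 (PPP2R1A, ABL2 and, by a negligible gap, SIRT5), against 11.2% of all genes. Without library 18, OGT and ABL1 passed, 2 of 8, against 8.47% of all genes. In Tau-K174Q against Tau-S199E, 0 of 8 passed, with 0.0597% of all genes, 0 with moderated variances (0.0% of all genes), and 2 of 8 at an unadjusted p under 0.05, against 16.1% of all genes. Here MARK2, GSK3A, PPP2R1A and CREBBP, 4 of 8, had libraries that did not overlap, against 36.2% of all genes, and MARK2 differed most, by 1.57 ± 0.40 SD units (adjusted p 0.2). SIRT5 differed least, by -0.08 ± 0.61 (adjusted p 0.94).

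**Figure D2:**
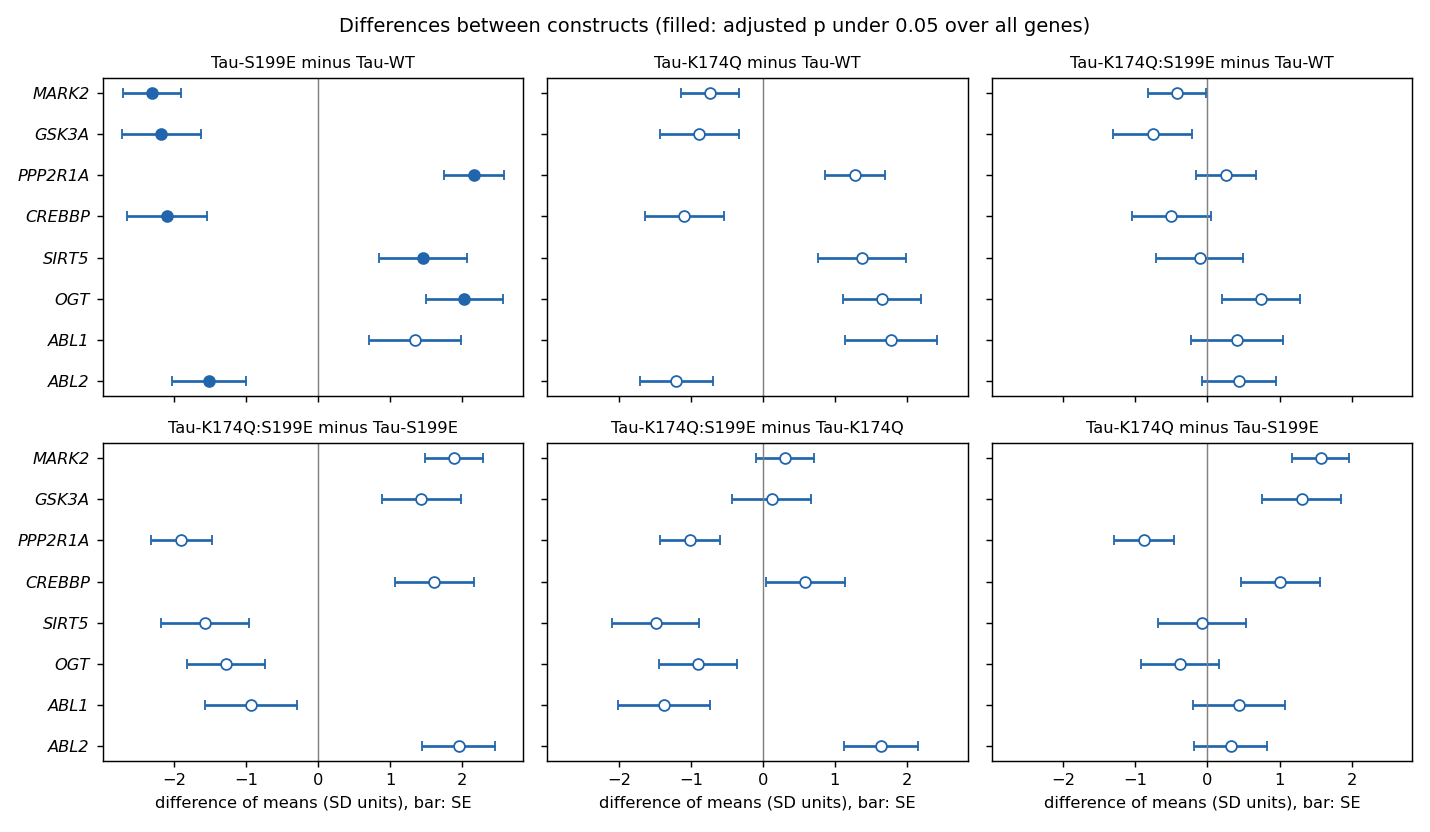
Differences of construct means for the 8 enzymes (horizontal axis, SD units, bars SE; n = 3 libraries per construct) in the 6 comparisons, one panel each, with filled points at an adjusted p under 0.05. The 7 filled points, all but ABL1, are in Tau-S199E minus Tau-WT, and the points of Tau-K174Q:S199E minus Tau-WT have the smallest median size, 0.43 SD units.

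Whether the combined construct departs from the sum of its parts is given by the interaction, the effect of K174Q in the presence of S199E minus its effect in Tau-WT. Because the table appears to have been picked on it, it is a description with no test. It was 2.62 ± 0.56 SD units (SE) for MARK2, 2.3 ± 0.78 for GSK3A, 2.7 ± 0.78 for CREBBP and 3.16 ± 0.72 for ABL2. It was -3.18 ± 0.60 for PPP2R1A, -2.94 ± 0.86 for SIRT5, -2.93 ± 0.77 for OGT and -2.71 ± 0.91 for ABL1. The sign split the enzymes 4 against 4, close to the split of the table, where 790 of 1676 genes were positive and 886 negative. Kinases stood on both sides, with MARK2, GSK3A and ABL2 positive and ABL1 negative.

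In the authors' deposited table, whose contrast the header does not name, the log2 fold change was 0.96 for MARK2 (adjusted p 0.00481), 1.37 for GSK3A (0.0161), 1.4 for CREBBP (0.00709) and 0.96 for ABL2 (0.00331). The authors' deposited table gave -1.22 for PPP2R1A (adjusted p 0.00262), -1.75 for SIRT5 (0.0342), -2.09 for OGT (0.00774) and -1.27 for ABL1 (0.031). Each sign was that of the interaction and opposite to Tau-S199E minus Tau-WT. By size OGT was the largest of the 8, at percentile 80.5 of all genes in the authors' deposited table, and MARK2 and ABL2 were the smallest, at percentiles 17.8 and 17.3. Their median size was 1.32, against 1.36 over the table. The authors' clusters put MARK2, GSK3A and CREBBP in cluster 1, ABL2 in cluster 2, SIRT5, OGT and ABL1 in cluster 3 and PPP2R1A in cluster 4.

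From library to library the enzymes moved with the rest of the table. With each gene turned so that its Tau-S199E side was positive, the mean of the 8 was 0.8, 0.69 and 1.59 in Tau-S199E libraries 10, 11 and 12, 0.68, 0.35 and 0.12 in Tau-K174Q libraries 4, 5 and 6, -1.29, -0.61 and 0.26 in Tau-K174Q:S199E libraries 16, 17 and 18, and -0.51, -1.25 and -0.83 in Tau-WT libraries 1, 2 and 3. The order of libraries within a construct was the same as for all genes in Tau-S199E, Tau-K174Q and Tau-K174Q:S199E. In Tau-WT, library 1 lay closer to 0 for the enzymes than for all genes, whose mean there was -0.91.

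**Figure D3:**
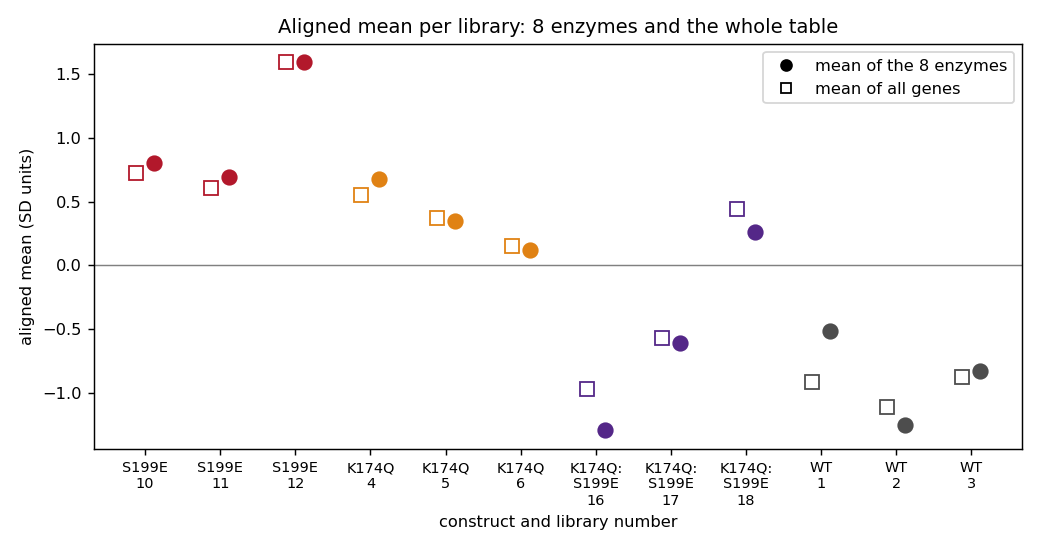
Aligned mean per library (vertical axis, SD units, each gene turned so that its Tau-S199E side is positive) for the 8 enzymes and for all 1676 genes, by construct and library number. The 2 sets run together; library 12 is highest at 1.59 in each, and library 18 stands above 0 at 0.26 for the enzymes and 0.44 for all genes, apart from libraries 16 and 17.

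Among the enzymes, the closest pairs over the 12 libraries were MARK2 with GSK3A and MARK2 with CREBBP, each with a Pearson r of 0.91, and OGT with PPP2R1A, also 0.91. OGT ran against CREBBP with an r of -0.91, and ABL1 ran against its relative ABL2 with an r of -0.75. The loosest pair was ABL1 with GSK3A, at -0.48. The 12 points share 4 constructs and libraries 12 and 18, which stood apart, and high values were general: the median absolute r was 0.8 over the 28 pairs of enzymes and 0.77 over all pairs of genes in the table. The r of an enzyme with the aligned mean of the other genes was 0.97 for OGT, 0.95 for CREBBP, 0.92 for PPP2R1A, 0.9 for MARK2, 0.86 for GSK3A, 0.82 for ABL2, 0.81 for ABL1 and 0.8 for SIRT5, with a median of 0.88 over the table. MAPT, the tau gene itself, which the constructs also encode, had an r with that mean of 0.51, at percentile 0.835 of all genes. It did not pass in Tau-S199E against Tau-WT (linear model, adjusted p 0.216). Its r was 0.26 to 0.45 with the 4 enzymes that stood lower in Tau-S199E and -0.76 to -0.37 with the 4 that stood higher, the most negative with SIRT5. Tau-K174Q:S199E library 17 held both the highest MAPT value, 2.54 (the next was 0.85), and the lowest SIRT5 value, -1.48.

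**Figure D4:**
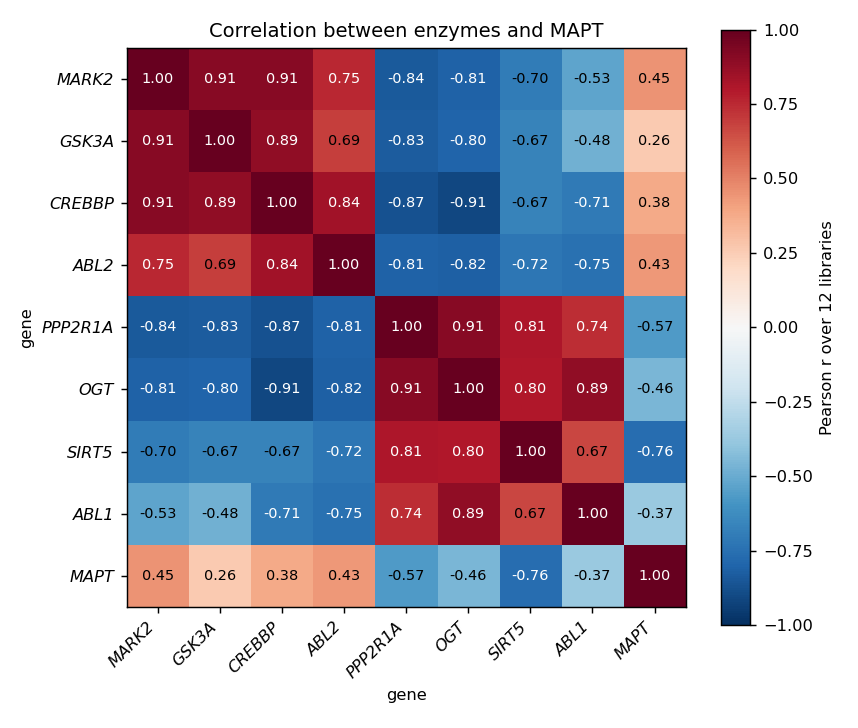
Pearson r over the 12 libraries (colour, from -1 to 1) between the 8 enzymes and MAPT, named on each axis. The enzymes fall into a block of MARK2, GSK3A, CREBBP and ABL2 and a block of PPP2R1A, OGT, SIRT5 and ABL1, positive within and negative between, and the weakest value of all is that of MAPT with GSK3A, 0.26.

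The genes whose 12 values were most like those of an enzyme came from varied processes. H1FX, a linker histone, and FASTK each had an r of 0.98 with MARK2, and YWHAG, a 14-3-3 protein, ran against it at -0.98. The arginine methyltransferase PRMT5, at 0.98, was nearest to GSK3A, with the complex I subunit NDUFA10 opposite at -0.97. For PPP2R1A these were SLC35A2, a UDP-galactose transporter, at 0.98, VMA21, an assembly factor of the proton pump, at 0.96, and PRRC2C opposite at -0.97. CREBBP had ZKSCAN1 at 0.99 and TMEM141 at 0.98, with BTBD6 opposite at -0.97. OGT had USB1, an exonuclease that trims U6 RNA, and PERP, a p53 target in cell death, each at 0.99, with the proteasome ATPase PSMC1 opposite at -0.98. The likeness was lower for the others. SIRT5 had COPS3, a subunit of the COP9 signalosome, and NUDT4 each at 0.92, with the replicative helicase subunit MCM4 at -0.92. ABL1 had the spindle protein FAM83D and the actin capping subunit CAPZA1 each at 0.95, with PTDSS2, a phosphatidylserine synthase, at -0.94. ABL2 had TMEM41A and the stress transcription factor DDIT3 each at 0.95, with the ferritin receptor NCOA4 at -0.88. Each r is over the same 12 libraries and describes these libraries only.

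Of 201 other genes listed as acting on tau or on its modifying enzymes, 25 were in the table and the others were not analysed here. In Tau-S199E against Tau-WT, 9 of the 25 were higher, 14 were lower and 2 did not pass, beside 90.0% of all genes passing. The median size of their difference was 2.11 SD units, and the 23 that passed had standard errors of 0.33 to 0.67 and adjusted p of 0.00968 to 0.0336. In the other 5 comparisons 0 of the 25 passed.

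Among the other serine/threonine kinases of tau, 6 of 66 were in the table and all 6 passed, beside 90.0% of all genes. The protein kinase A catalytic subunit PRKACA fell by 2.27 SD units, the casein kinase CSNK1A1 fell by 1.82, the ribosomal S6 kinase RPS6KA1 fell by 1.76 and the kinase ROCK1 fell by 1.47. AKT1, a kinase of insulin signalling that inhibits GSK3 by phosphorylation, rose by 2.17, and the checkpoint kinase CHEK2 rose by 2.02. AKT1 also stood 2.23 SD units higher in Tau-K174Q than in Tau-WT, with an adjusted p of 0.066. Genes listed under kinase regulators were likewise split. The AMP-activated kinase subunit PRKAG1 fell by 2.16 and the 14-3-3 gene YWHAB fell by 2.15. YWHAG, a relative of YWHAB, rose by 2.28. CTNNB1, the beta-catenin gene, which that list also holds, rose by 2.03. None of 8 other tyrosine kinases listed was in the table, so ABL1 and ABL2 had no other member of their class beside them.

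The phosphatase genes beside PPP2R1A showed no single direction either. PPP2R5E, a regulatory subunit of the same phosphatase 2A, fell by 2.11 SD units. PPME1, which removes the methyl group from the catalytic subunit, fell by 2.3, and ANP32A, an inhibitor of phosphatase 2A, rose by 1.91. Of the phosphatase 1 catalytic subunits, PPP1CA fell by 2.14 and PPP1CC rose by 2.22. Of 22 other acetylation and deacetylation genes listed, 0 were in the table, so CREBBP and SIRT5 had no listed gene of that kind beside them. Of 6 other O-GlcNAc genes, UAP1, which makes the sugar donor that OGT uses, was in the table and stood 1.42 higher in Tau-S199E with an adjusted p of 0.0596. In the list of ubiquitylation, SUMO, methylation and cleavage genes, which also holds chaperones, 9 of 41 were in the table. There HSP90AB1 fell by 2.46, the deubiquitinase USP14 fell by 2.31 and its relative USP11 fell by 2.22. The SUMO protease SENP1 fell by 1.91 and the calpain subunit CAPNS1 fell by 1.81. The co-chaperone DNAJA1 rose by 2.18, the ubiquitin ligase SIAH1 by 1.88 and the chaperone HSPA1A by 1.84, while LGMN, a protease that cleaves tau, stood 1.6 higher with an adjusted p of 0.0506.

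**Figure D5:**
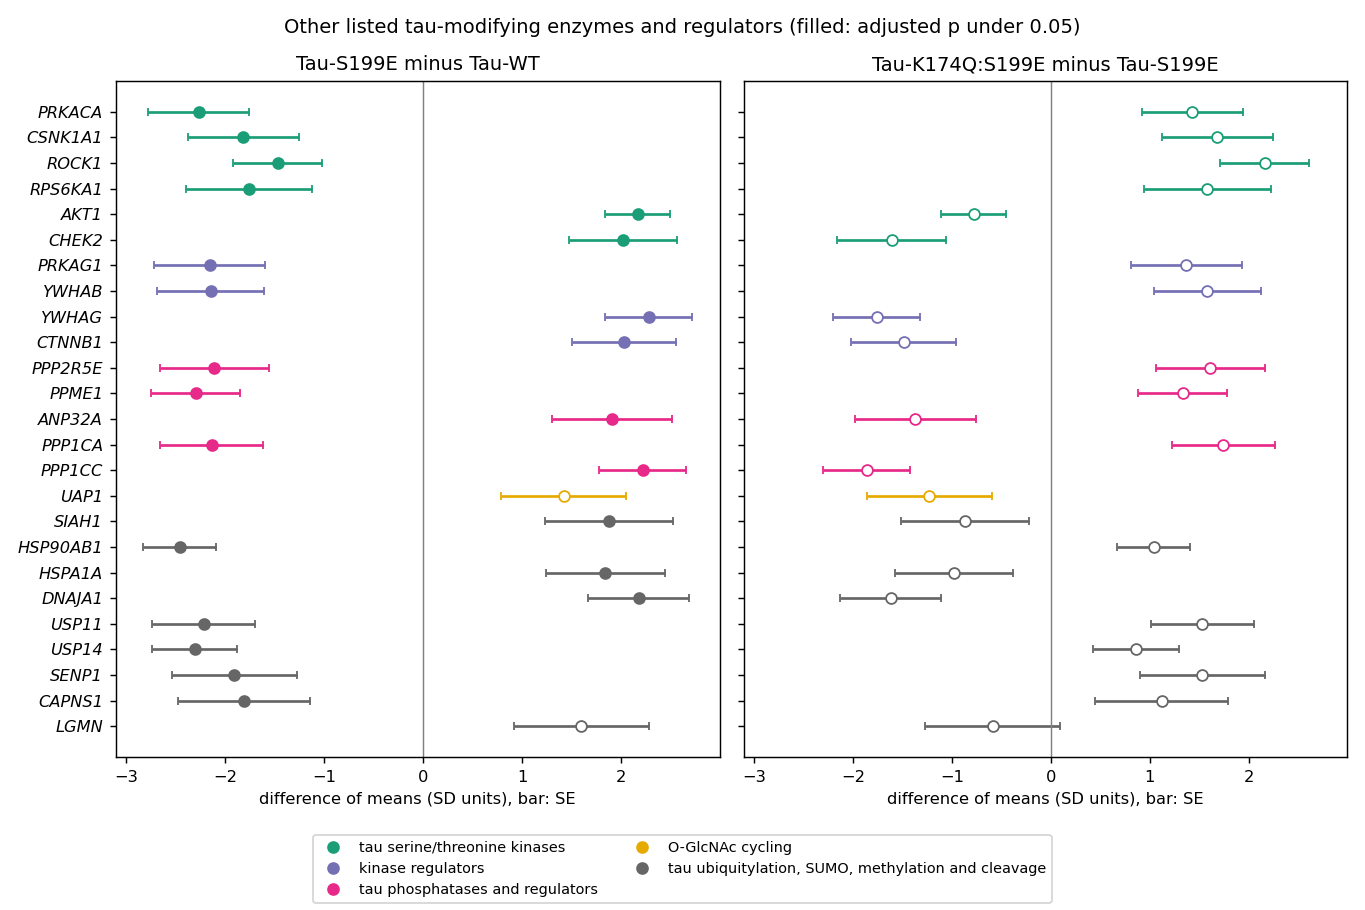
Differences of construct means (horizontal axis, SD units, bars SE; n = 3 libraries per construct) for the 25 other listed tau-modifying enzymes and regulators, named down the page, in Tau-S199E minus Tau-WT (left) and Tau-K174Q:S199E minus Tau-S199E (right), coloured by list. In Tau-S199E minus Tau-WT 23 points are filled (adjusted p under 0.05), 9 to the right of 0 and 14 to the left, and UAP1 and LGMN are open, as are all 25 on the right.

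All 8 enzymes were matched by symbol to promoter windows from RefSeq (GRCh38.p14), 12 windows of 250 bases in all. On either strand, GGGCGG, the GC box, was in 9 of 12 windows, against 42.6% of 35116 windows of the same length, and ABL2, whose window lies inside the gene, was the 1 enzyme of 8 with none. CCAAT was in 4 of 12 windows (MARK2, PPP2R1A, ABL1 and ABL2), against 32.0%, and TATAAA was in 0 of 12, against 10.7%. The letters TGACG, the core of the cyclic AMP response element that CBP is named for through its partner CREB, were in 3 of 12 windows (GSK3A, PPP2R1A and CREBBP), against 21.2%. CACGTG was in 0 of 12, against 6.34%. The NRF1 core motif was in 2 of 12 windows, against 1.03%, and these are the windows of SIRT5, which overlap each other and so are not separate matches. None of these motifs divided the enzymes that stood lower in Tau-S199E from those that stood higher: the GC box was in MARK2, GSK3A and CREBBP on one side and in PPP2R1A, SIRT5, OGT and ABL1 on the other. A match describes these letters and is not a binding site.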

How the data were processed

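Per the labels' protocols, each of the 12 SH-SY5Y libraries took 400 ng of RNA and a 3′ mRNA kit for polyadenylated transcripts. DESeq2, RSEM 1.2.31 and STAR 2.5.3a are named in the submitters' processing notes, with GRCh38. The sources used here do not give the transform, gene filter or strand setting. The deposited library values are a score, standardised by the authors per gene (largest absolute mean 5.7e-15, SD 1.0000). Log2 fold changes, adjusted p-values (4.6e-07 to 0.0499) and clusters are deposited beside them. Depth is unknown, so no count model, pseudocount or interval of counts applies.

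The scores were fitted with limma 3.58.1 (R 4.3.3), with 1 mean per construct over 12 libraries, ordinary residual variances, two-sided tests and Benjamini-Hochberg adjustment over 1676 genes at 0.05. The script was tested on simulated data. Exact permutation tests used the 6 libraries of a pair. None of these p-values allows for the selection of the table, so a pass describes selected genes. No label says that the replicates are separate cultures, and p-values then cover just the spread among libraries, possibly of technical origin. Alternatives were moderated variances, ranks, the 6 libraries of a pair alone, leaving out libraries 12 and 18, and leaving out each library. Leaving out libraries of constructs outside a pair was added after seeing the data.

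Members and lists were chosen with earlier results of these data known. All 8 members, MAPT and all listed genes could be named, with the 2 genes of highest and the 1 of lowest Pearson r per member, 1 of which is not reported here. Gene positions are from GENCODE 29, and promoters are from RefSeq.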

Additional observations from a re-analysis of the deposited data

Results flagged for a closer look

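In 6 of the 8 enzymes the effect of K174Q lay in opposite directions with and without S199E, in every library. Each Tau-K174Q:S199E library lay on one side of the Tau-S199E mean, and each Tau-K174Q library lay on the other side of the Tau-WT mean. The same was seen in 78.9% of all 1676 genes, so the share of the enzymes was close to that of the table. For MARK2 the effect was 1.88 SD units with S199E and -0.73 without it, a difference of 2.62. GSK3A gave 1.43 and -0.88, a difference of 2.3, CREBBP gave 1.61 and -1.09, a difference of 2.7, and ABL2 gave 1.95 and -1.2, a difference of 3.16. These 4 were the transcripts that stood lower in Tau-S199E. PPP2R1A gave -1.9 with S199E and 1.28 without it, a difference of -3.18, and SIRT5 gave -1.57 and 1.38, a difference of -2.94. None of these differences was tested, because the genes of the table appear to have been chosen on the same quantity. OGT and ABL1 had the same pattern in libraries 16 and 17, but library 18 stood 0.01 SD units above the Tau-S199E mean for OGT and 0.77 above it for ABL1.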

How the results depend on the processing

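MARK2, GSK3A, PPP2R1A, CREBBP and OGT kept their direction and their call in Tau-S199E against Tau-WT under all 16 alternatives, the highest adjusted p being 0.0487. The count there was 5 to 7 of 8 when 1 library was left out, beside 49.7% to 93.8% of all genes. It was 5 without library 2 (63.0% of all genes), 3 (71.9%) or 12 (49.7%). SIRT5 lost its call in 12 settings (adjusted p 0.0508 to 0.159) and ABL2 in 5 (0.0572 to 0.0762).

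Against 0 of 8 with all libraries, Tau-K174Q against Tau-WT gave 4 with moderated variances (59.9% of all genes), 4 with the 6 libraries of the pair (48.9%) and 4 without libraries 12 and 18 (58.5%). Leaving out 1 library gave 0 to 3 (0.0% to 40.3%). Tau-K174Q:S199E against Tau-S199E gave 7 with moderated variances (68.8% of all genes), 3 with ranks (24.5%) and 6 without libraries 12 and 18 (43.6%). Leaving out 1 library there gave 0 to 7 (0.0% to 78.5%). Tau-K174Q:S199E against Tau-K174Q gave 3 without libraries 12 and 18 (26.9% of all genes) and 0 to 2 leaving out 1 library (0.0% to 8.47%). The other 2 comparisons stayed at 0 of 8, beside at most 0.179% of all genes. The causes were not tested.

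Signs turned only for differences that had not passed. In Tau-K174Q:S199E against Tau-WT, leaving out 1 library gave -0.12 to 0.53 for PPP2R1A (negative without library 2 or 18), -0.43 to 0.33 for SIRT5 (positive without library 1 or 17), -0.44 to 1.0 for ABL1 (negative without 18) and -0.08 to 0.79 for ABL2 (negative without 16). Without libraries 12 and 18, PPP2R1A was -0.1 and ABL1 -0.44. In Tau-K174Q:S199E against Tau-K174Q, GSK3A ran from -0.31 to 0.47 (negative without library 4 or 16). In Tau-K174Q against Tau-S199E, SIRT5 ran from -0.43 to 0.37 (positive without library 6 or 12) and was 0.34 without libraries 12 and 18.

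Over all genes, Tau-S199E against Tau-WT gave 1509 calls and 833 without library 12. Tau-K174Q against Tau-WT gave 0, against 1004 with moderated variances, 26 with ranks, 819 with 6 libraries, 981 without libraries 12 and 18, and 675 without 18. Tau-K174Q:S199E against Tau-S199E gave 2, against 1153, 411, 0 and 730 under the same 4 settings and 1315 without library 18. Tau-K174Q:S199E against Tau-K174Q gave 0, against 451 without libraries 12 and 18 and 142 without 18. No paired analysis was possible because the columns carry library numbers and not the replicate numbers of the labels. The interaction was not run with 6 libraries, and its fits with ranks and moderated variances are not reported here. Depth is unknown, so what it limits cannot be stated.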

Other observations

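The annotation deposited with the table marks 3 genes with tau-protein kinase activity, MARK2, GSK3A and ROCK1. All 3 fell in Tau-S199E against Tau-WT, beside 41.8% of all genes passing lower. Of the 6 other tau serine/threonine kinases listed above, ROCK1 among them, 4 fell and 2, AKT1 and CHEK2, rose. The annotation marks 9 genes as binding tau protein, a list read after the values were seen. The 3 kinases are among these 9, so the 2 counts are not separate. Of the 9, 7 fell, 1 rose and 1 did not pass, beside 41.8% of all genes passing lower and 48.3% higher. Besides MARK2, GSK3A, ROCK1 and the chaperone HSP90AB1, ACTB, the beta-actin gene, fell by 1.96 SD units, DCTN1, a subunit of the dynactin motor complex, fell by 2.34, and CLU, the extracellular chaperone clusterin, fell by 1.65. PICALM, a clathrin adaptor, rose by 1.79 (adjusted p 0.0299), and the protease LGMN stood 1.6 higher with an adjusted p of 0.0506. A list of 9 genes chosen in this way is a description of the table and has no test.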
